A study of Drosophila melanogaster with 29 samples.

Results

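Genes of the Drosophila cuticle proteins were followed through embryos that overexpress Mnn1 and through adults that carry Mnn1 alleles. Mnn1 encodes menin, the fly homologue of a human tumour suppressor. Genes were taken by name: every probe with a single current symbol that begins with Cpr and a digit, Ccp84, Lcp, Pcp, Edg or Twdl. On the embryo arrays 198 of 30377 tested spots, from 94 genes, met this rule, and on the adult arrays 97 of 13966 tested probe sets, from 91 genes. Together they covered 99 of the 124 genes with such symbols in the Release 6 annotation, and 86 genes were on both arrays. A further 7 adult probe sets were left out because each names a member together with another gene.

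The insect cuticle is a layer of chitin fibres and proteins that the epidermis and tracheal cells secrete over themselves. Most members belong to the CPR family, whose proteins share a chitin-binding sequence, the Rebers and Riddiford consensus. The Tweedle (Twdl) proteins form a second family, known in fly larvae for a body-shape phenotype of TwdlD mutants. Lcp and Pcp genes were first described as larval and pupal cuticle proteins, and the Edg genes as ecdysone-dependent genes. In the embryo cuticle is laid down late in development, after the earliest hours covered here, and many members lie side by side in tandem arrays.

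The embryo arrays compared mnn++ embryos with 2 controls, cntrl1 and cntrl2. Per the labels mnn++ carries full-length Mnn1 cDNA under the GAL4 UAS promoter, introduced by P-element transgenesis, and the controls carry the same driver without that construct. Neither the driver nor what separates cntrl1 from cntrl2 is named. Embryos were collected at 25 °C over 2-4, 4-6, 6-8 and 2-16 h, and each pairing was hybridised with both dye assignments, which gave 16 arrays of mnn++ against a control and 2 of cntrl1 against cntrl2 at 2-16 h. Adults were whole flies kept for 3 to 5 days after eclosion, on 11 arrays: males labelled mnn- (3 arrays, of X46_Y79, Y79_X46 and Y79_Y79 alleles), control X113_X84 (1) and wt (1), and females labelled mnn- (2, X46_Y79 and Y79_X46), heterozygote (2, X113_Y79 and X84_X46), control X113_X84 (1) and wt (1). A free-text note on the adult arrays calls all of them homozygous for protein-null alleles, against their titles, and the titles were used. Labels do not say that arrays of a group came from separate collections, so p-values measure only the spread between these arrays, which may be technical. In the embryo window fits with both controls, dye assignments are averaged first. The spread there is the gap between the cntrl1 and cntrl2 comparisons, pooled over windows, so a difference between the controls widens the SE.

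Embryo values are log ratios, read as log2, with the sign set so that values above 0 stand for a higher level in mnn++. That direction is likely but not stated: it rests on Mnn1, which was above 0 on all 4 arrays at 2-16 h at both of its spots (0.25, 0.49, 0.65 and 0.84 at spot 12064 and 0.40, 0.62, 0.67 and 0.79 at spot 12724). In the fit at 2-16 h Mnn1 stood at 0.62 ± 0.08 and 0.56 ± 0.09 (log2, SE, 2 controls), with limma adjusted p of 0.565 and 1.00. In the earlier windows Mnn1 was closer to 0 in the fits, at 0.03 ± 0.09 and 0.14 ± 0.08 at 2-4 h, 0.08 ± 0.09 and 0.15 ± 0.08 at 4-6 h, and 0.24 ± 0.09 and 0.25 ± 0.08 at 6-8 h (spots 12064 and 12724), and single arrays lay below 0 in each of them. None of these passed the test, and neither did the values at 2-16 h. At 6-8 h spot 12064 was above 0 on all 4 arrays (0.125, 0.267, 0.158 and 0.416), and spot 12724 on all but 1 (-0.037). The level of Mnn1 thus does not bear out the mnn++ label at 2-4 and 4-6 h. At 6-8 h it leans to the side of the label without passing. In adults the Mnn1 probe set read 5.17 to 5.504 in males labelled mnn-, against 5.40 and 5.51 in non-mutant males, and 5.91 and 6.17 in females labelled mnn-, against 5.63 and 5.75 in non-mutant females. The level therefore gives no check of the mutant labels, since where the probes lie relative to the lesions is not known here.

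At 2-16 h the cuticle protein genes read lower in mnn++ embryos as a group, with the lowest values among the Tweedle genes, but no spot passed the test. Of the 198 spots, 143 lay below 0 (72.2%), against 49.3% of all spots, and the members' median was -0.04, against 0.00 for all spots. On all 4 arrays of the window 34 spots from 23 genes were lower in mnn++, or 17.2%, where 4.26% of all spots were, and 4 spots were higher (2.02%, against 4.76% of all). In the fit, 0 of 198 spots passed an adjusted p of 0.05 (limma, Benjamini-Hochberg over all spots), as did 0 of all spots, 0%. At an unadjusted p under 0.05, 23 spots were lower (1.44% of all spots were) and 0 higher (1.24% of all). The lowest adjusted p among them was 1.00.

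TwdlW had the lowest values of the window. Its spot 4524 read -0.75 and -0.35 against cntrl1, with mnn++ in Cy3 and in Cy5, and -0.64 and -0.97 against cntrl2. All 4 arrays were below 0, as they were at its other spot, 5176 (-0.18, -0.37, -0.63 and -1.03 in the same order), where both arrays against cntrl2 were lowest. The fitted differences were -0.68 ± 0.12 and -0.55 ± 0.16 (log2, SE, 2 controls). With each array as its own value spot 4524 passed (-0.68 ± 0.10, adjusted p = 0.0401), and it was then the only spot of all that fell.

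TwdlG read -0.67 and 0.00 against cntrl1 and -0.63 and -0.71 against cntrl2 at spot 2906, with a fitted -0.50 ± 0.09, and its spot 3560 had -0.46 ± 0.13. One cntrl1 array thus stood at 0, while the others were clearly below it. TwdlD, the Tweedle gene with the body-shape phenotype, had -0.54 ± 0.23 at spot 5052 and -0.36 ± 0.15 at spot 4400. Its lowest array was -1.03, against cntrl2, and its highest -0.08, against cntrl1.

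TwdlQ showed the same split between the controls. Spot 9664 read -0.06 and -0.09 against cntrl1 and -0.69 and -0.47 against cntrl2, for a fitted -0.33 ± 0.12, and spot 10340 had -0.31 ± 0.09. The groups of arrays did not overlap: both cntrl2 values lay below both cntrl1 values. Of the 16 Twdl genes, averaged over their spots, 15 were below 0 against cntrl1 and 14 against cntrl2, and the medians were -0.08 and -0.11.

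Among the CPR genes Cpr67Fa2 was below 0 on all 4 arrays at 2-16 h at both of its spots. Spot 1846 read -0.31 and -0.32 against cntrl1 and -0.41 and -0.36 against cntrl2, and spot 2502 read -0.26, -0.24, -0.29 and -0.27 in the same order, so that the arrays lay close together. Its fitted value at spot 1846 was -0.35 ± 0.23, with an SE that measures the gap between the 2 control comparisons, pooled over the 4 windows. Cpr64Ab, in a run of 4 neighbouring genes at 64A, had -0.32, -0.09, -0.08 and -0.67 at spot 25574, a fitted -0.29 ± 0.09. Of the 62 Cpr genes 44 were below 0 against cntrl1 and 36 against cntrl2, and both medians were -0.03.

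The Ccp84 genes lie in a cluster that also holds Edg84A. All 6 were below 0 at 2-16 h against cntrl2, with values from -0.29 to -0.08 and a median of -0.22, and 4 of 6 against cntrl1, where the median was -0.07. Ccp84Ac read -0.14 and -0.24 against cntrl1 and -0.14 and -0.45 against cntrl2 as the mean of its 2 spots, so that all 4 arrays were below 0. The 4 spots of Ccp84Ad gave fitted values of -0.28 ± 0.08, -0.23 ± 0.07, -0.18 ± 0.08 and -0.18 ± 0.10. The spots of Ccp84Ae disagreed, at -0.25 ± 0.07 and 0.05 ± 0.08.

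Members of the other small families stood near 0 at 2-16 h. Edg91 had -0.06 against cntrl1 and -0.05 against cntrl2, Edg84A -0.03 and -0.18, and Edg78E -0.04 and 0.03. Pcp, the pupal cuticle protein gene inside an intron of Gart, had 0.13 against cntrl1 and -0.01 against cntrl2. Of the 6 Lcp genes 4 were below 0 against cntrl1 and 3 against cntrl2. The 4 spots that were higher on all 4 arrays belonged to Lcp9 (0.11 ± 0.07), Cpr49Af (0.07 ± 0.07), Cpr65Av (0.06 ± 0.07) and Cpr62Bb (0.04 ± 0.07), and at each of these genes the other spot was below 0 on at least 1 array. The next value in that order was TwdlR at -0.04 ± 0.07. Between the spots of the 89 genes with 2 spots the fitted values at 2-16 h had r = 0.83 across genes, which are not independent replicates, and 63 of the 89 pairs had 1 sign.

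**Figure D1:**
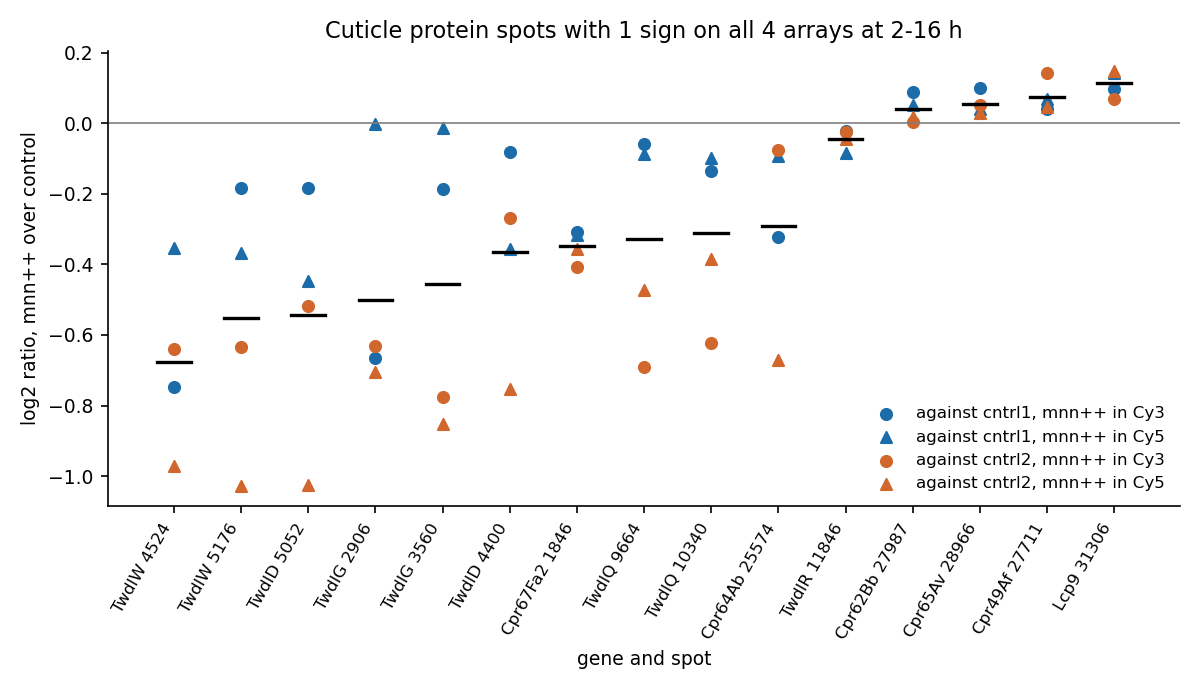
Log2 ratio of mnn++ over control at 2-16 h on each of the 4 arrays (blue against cntrl1, orange against cntrl2, circles with mnn++ in Cy3, triangles in Cy5) for the 10 lowest and 5 highest cuticle protein spots among those with 1 sign on all 4 arrays. Black bars are the fitted values. TwdlW, TwdlD and TwdlG are lowest, with the cntrl2 arrays mostly below the cntrl1 arrays, and the 4 spots above 0 stay under 0.15.

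Dye assignment moved with these values. Within 2-16 h 80.8% and 74.2% of the member spots were below 0 on the arrays with mnn++ in Cy3 (against cntrl1 and cntrl2), and 40.4% and 57.6% on those with mnn++ in Cy5. For all spots the 4 shares ran from 46.5% to 51.5%. Averaging the dye assignments, as the fits do, cancels an effect of dye that is the same on both arrays of a pairing. The orientation difference had r = 0.63 across spots between the mnn++ arrays and the direct control arrays, which hold no mnn++ RNA. Across all spots the median r was 0.33 between mnn++ arrays of the same dye assignment, and -0.25 between those of opposite assignment.

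The arrays of cntrl1 against cntrl2 gave a second measure of the Tweedle split at 2-16 h, for 4 genes already named for their low values. Labels do not say whether their control RNA is the same as on the mnn++ arrays, so the measures may not be independent. TwdlG read -0.55 and -0.32 there (cntrl1 over cntrl2, cntrl1 in Cy3 and in Cy5), TwdlQ -0.46 and -0.26, TwdlW -0.24 and -0.56 and TwdlD -0.08 and -0.45. All of these were below 0, so that cntrl1 was lower than cntrl2. Worked out through mnn++ the same difference was -0.52 for TwdlG, -0.45 for TwdlQ, -0.40 for TwdlW and -0.37 for TwdlD. The 4 genes thus ran lowest in mnn++, then cntrl1, then cntrl2, although mnn++ was close to cntrl1 on some arrays. It stood within 0.1 of cntrl1 on both arrays of TwdlQ spot 9664, on 1 array of TwdlG spot 2906 and on at least 1 of TwdlD. At TwdlG spot 3560 the arrays against cntrl1 averaged -0.0995. Cpr51A did not show this: it was -0.54 through mnn++, but 0.70 and -0.73 on the direct arrays. Over the member spots the 2 estimates had r = 0.33 across spots and 1 sign in 108 of 198.

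In the 2-hour windows the cuticle protein genes lay on opposite sides of 0 against the 2 controls at 2-4 and 6-8 h, and near 0 against both at 4-6 h. Against cntrl1, at 2-4, 4-6 and 6-8 h, 55, 46 and 79 of the 94 genes were below 0, with medians of -0.02, 0.00 and -0.08. Against cntrl2 34, 44 and 31 genes were below 0 in the same windows, with medians of 0.06, 0.00 and 0.05. The medians of all spots stayed within 0.01 of 0 in every comparison. At 2-16 h both medians were below 0, with 70 and 62 genes below 0. The mnn++ RNA of a window may be shared between the comparisons with cntrl1 and cntrl2, so the 2 sets of values are given side by side only. They are means of dye assignments that differed. Against cntrl1 at 2-4 and 6-8 h, 72.7% and 86.4% of member spots lay below 0 with mnn++ in Cy3. With mnn++ in Cy5 41.4% and 49.5% did. Against cntrl2 the shares were 52.5% and 50% in Cy3, and 21.2% and 26.3% in Cy5. At 4-6 h against cntrl2 they were 69.7% in Cy3 and 29.8% in Cy5.

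**Figure D2:**
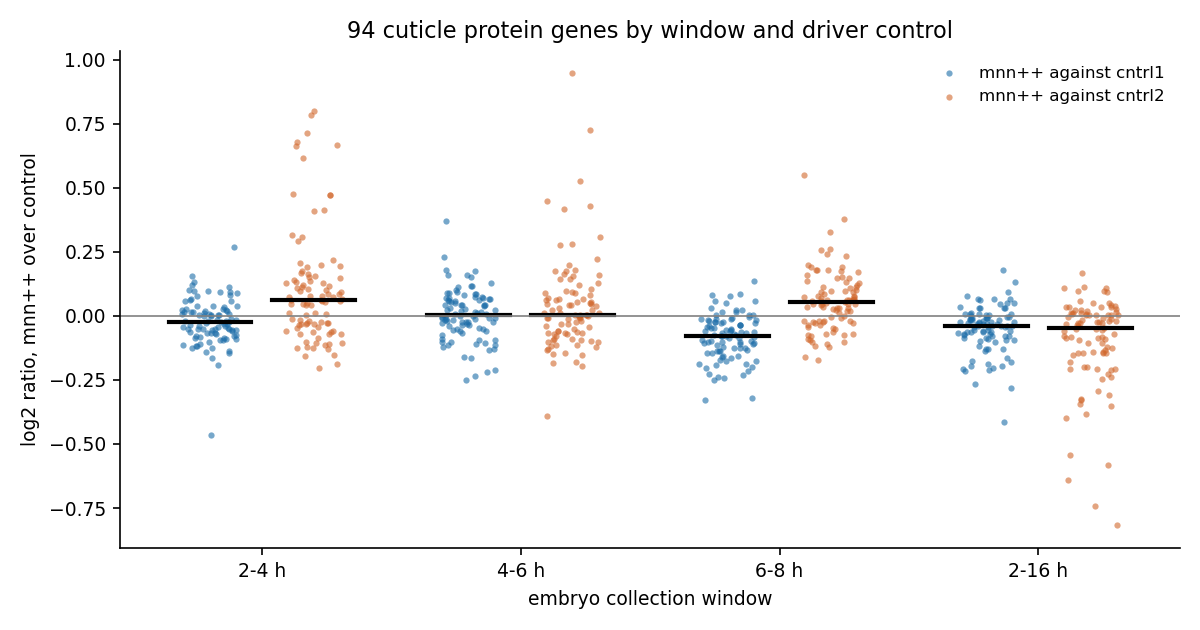
Log2 ratio of mnn++ over control for each of the 94 cuticle protein genes (points, mean over the spots and dye assignments) by collection window, against cntrl1 (blue) and cntrl2 (orange), with black bars at the medians. Against cntrl2 the points reach 0.80 at 2-4 h and 0.95 at 4-6 h, and go down to -0.82 at 2-16 h, while against cntrl1 they stay between -0.46 and 0.37.

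At 2-4 h, with both controls in the fit, 0 member spots passed the test, as did 0 of all spots, 0%. At an unadjusted p under 0.05, 9 were higher (3.83% of all spots) and 1 lower (3.5% of all). The highest values were Cpr67Fa2 (0.40 ± 0.22), TwdlD (0.38 ± 0.23) and Cpr51A (0.36 ± 0.19), and the lowest were Cpr65Ec (-0.25 ± 0.13 and -0.24 ± 0.11 at its 2 spots) and Cpr12A (-0.20 ± 0.09). The other spot of Cpr12A was above 0 against cntrl1 (0.131) and cntrl2 (0.165), and the average of its spots was -0.03 ± 0.07. The controls were far apart at Cpr67Fa2, which averaged 0.80 against cntrl2 and -0.09 against cntrl1.

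Against cntrl2 alone, with each array as its own value, 4 member spots rose at 2-4 h and 0 fell (0.662% of all spots rose). They were Cpr67Fa2 at both spots (0.78 ± 0.10, adjusted p = 0.0035, and 0.82 ± 0.13, adjusted p = 0.014), TwdlD (0.82 ± 0.12, adjusted p = 0.011) and Lcp65Aa, in the larval cuticle protein array at 65A (0.60 ± 0.11, adjusted p = 0.027). Lcp65Ae read 0.69 ± 0.14 with adjusted p = 0.058. Against cntrl1 alone 0 member spots passed. In these fits n is 2 arrays of opposite dye, which may hold the same RNA, so the p-values may reflect technical spread only.

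At 4-6 h 0 member spots passed with both controls, and 0 of all spots, 0%, with 8 higher and 5 lower at an unadjusted p under 0.05 (5.11% and 5.17% of all spots). Cpr78Cc had the highest value, 0.44 ± 0.27 at spot 2422 and 0.28 ± 0.23 at spot 1766, next to Cpr67Fa2 with 0.36 ± 0.23. The lowest were Cpr65Az (-0.23 ± 0.07), Cpr65Ec (-0.20 ± 0.11) and Cpr11B (-0.20 ± 0.08). Averaged over their spots, these genes stood at -0.12 ± 0.05, -0.18 ± 0.12 and -0.09 ± 0.06. Against cntrl2 alone Cpr67Fa2 (0.84 ± 0.10, adjusted p = 0.017) and Cpr78Cc (1.11 ± 0.16, adjusted p = 0.036) rose, 1 spot each, where 0.158% of all spots did. The array of cntrl2 in Cy3 at 4-6 h had the widest spread of all 18, an SD of 0.304 over all spots, and on it the 2 spots of Cpr78Cc read 1.26 and 1.73, where its dye-reversed partner gave 0.31 and 0.48.

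At 6-8 h 0 member spots passed, and 0 of all spots, 0%, with 3 lower and 0 higher at an unadjusted p under 0.05 (2.53% and 2.69% of all). The lowest were Lcp65Ac (-0.22 ± 0.07), Lcp65Ae (-0.20 ± 0.12) and Ccp84Ad at 1 of its 4 spots (-0.18 ± 0.07), and the highest Cpr47Eb (0.40 ± 0.19), Cpr97Ea (0.18 ± 0.08) and TwdlF (0.16 ± 0.14). Spot 6329 of Cpr47Eb read -0.19 and -0.06 against cntrl1 and 0.27 and 1.58 against cntrl2, while its spot 5653 read -0.12, 0.05, 0.18 and 0.17 in the same order. The value of this gene thus rested on 1 array at 1 of its spots. For Cpr97Ea and TwdlF too, the values given were those of 1 spot. Averaged over their spots, Cpr97Ea stood at 0.08 ± 0.06 and TwdlF at 0.02 ± 0.15. Edg78E stood at -0.12 against cntrl1 and -0.16 against cntrl2. All 6 Ccp84 genes were above 0 against cntrl2, from 0.01 to 0.15, and 5 of 6 below 0 against cntrl1.

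**Figure D3:**
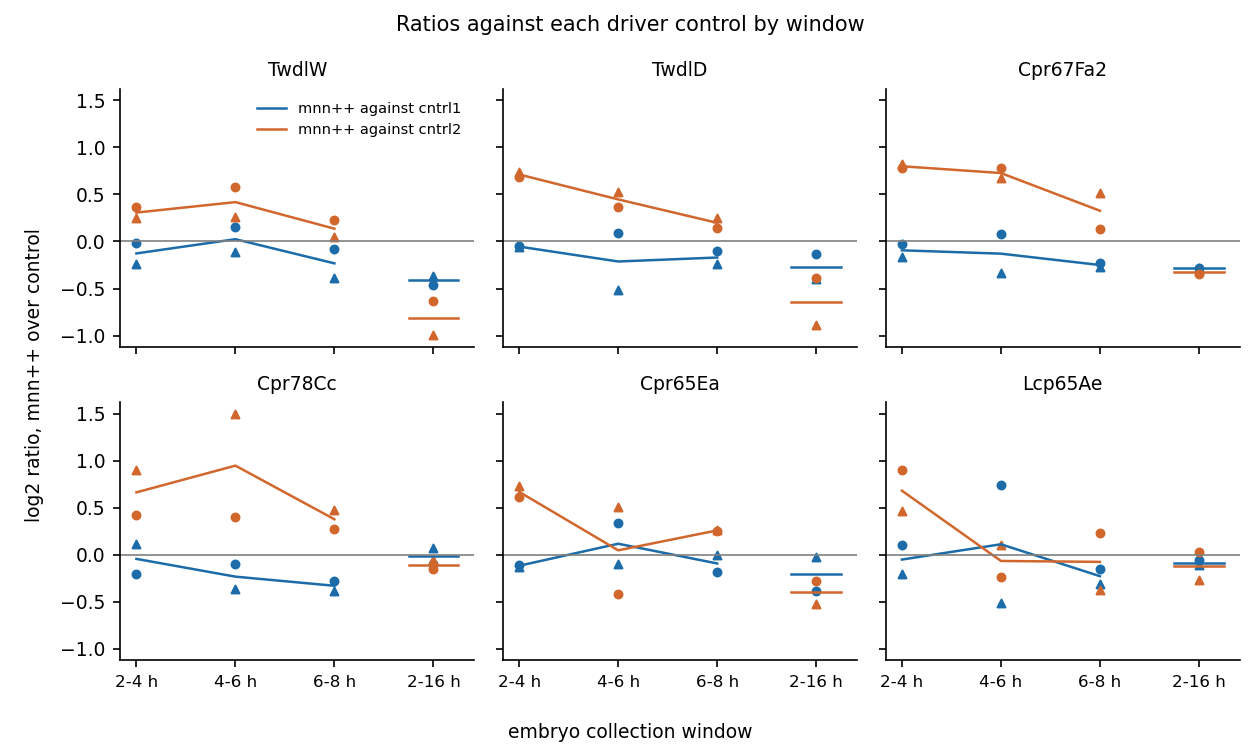
Log2 ratio of mnn++ over cntrl1 (blue) and over cntrl2 (orange) by collection window for 6 cuticle protein genes, as the mean of both dye assignments (lines for the 2-hour windows, short bars for 2-16 h) and on each array (circles with mnn++ in Cy3, triangles in Cy5). They were picked with their values already known. TwdlD, against cntrl2, goes to 0.71 at 2-4 h and -0.64 at 2-16 h, while against cntrl1 it stays between -0.05 and -0.27.

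The contrast of 2-16 h with the mean of the 2-hour windows asked whether the late-reaching collection differed. With both controls 0 member spots passed, and 0 of all spots, 0%, with 24 lower (2.31% of all) and 2 higher (2.01% of all) at an unadjusted p under 0.05 and a member median of -0.06. The lowest were TwdlW (-0.80 ± 0.14 and -0.61 ± 0.19) and TwdlD (-0.76 ± 0.27). Highest were Cpr49Af (0.20 ± 0.08), Cpr65Az (0.17 ± 0.07) and Cpr30B (0.16 ± 0.08), each at 1 spot. Averaged over their spots, Cpr49Af, Cpr65Az and Cpr30B stood at 0.09 ± 0.07, 0.13 ± 0.06 and 0.01 ± 0.08. Against cntrl2 alone 9 member spots fell in this contrast (0.207% of all spots did) and 0 rose: both spots of TwdlW (-1.10 ± 0.11 and -1.11 ± 0.12, adjusted p = 0.0094 each), of TwdlG (-0.91 ± 0.11 and -0.80 ± 0.12) and of Cpr67Fa2 (-0.99 ± 0.11 and -0.90 ± 0.15), and 1 spot each of TwdlD (-1.36 ± 0.14, adjusted p = 0.0094), Cpr65Eb (-0.70 ± 0.11) and TwdlQ (-0.70 ± 0.11). The remaining adjusted p of these spots lay between 0.011 and 0.048. Against cntrl1 alone 0 passed, and the member median was -0.01.

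At 2-16 h against cntrl2 alone 3 member spots fell and 0 rose (0.0428% of all spots fell): TwdlW at both spots (-0.80 ± 0.09, adjusted p = 0.015, and -0.83 ± 0.10, adjusted p = 0.017) and TwdlG at 1 spot (-0.81 ± 0.10, adjusted p = 0.017). Against cntrl1 alone 0 passed.

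Over the 4 windows together 0 member spots passed, while 67 spots of all genes rose (0.221%) and 12 fell (0.0395%). Cpr65Ec came nearest, at -0.18 ± 0.04 (adjusted p = 0.069) and -0.15 ± 0.04 (adjusted p = 0.18) at its 2 spots. Averaged over them it was -0.46, 0.02, -0.24 and -0.02 against cntrl1 at 2-4, 4-6, 6-8 and 2-16 h, and -0.03, -0.39, -0.05 and -0.14 against cntrl2, so that 7 of the 8 comparisons lay below 0. On single arrays the mean of its 2 spots ran from -0.70 to 0.43. The highest values were Cpr78Cc (0.20 ± 0.07), Cpr47Eb (0.18 ± 0.05) and Cpr67Fa2 (0.12 ± 0.08), and TwdlW had -0.10 ± 0.09.

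The controls themselves were compared as well. Worked out through mnn++ over the 4 windows, cntrl1 exceeded cntrl2 by 0.69 ± 0.16 and 0.56 ± 0.15 at Cpr78Cc and by 0.58 ± 0.14 at Cpr67Fa2 (log2, SE, n = 4 windows), and was lowest at Pcp (-0.17 ± 0.07), TwdlR (-0.15 ± 0.07) and Cpr49Aa (-0.13 ± 0.07). None of these passed the test, with the lowest adjusted p at 0.22, while 11 spots of all genes rose (0.0362%) and 1 fell (0.00329%). At an unadjusted p under 0.05, 23 member spots were higher in cntrl1 (4.13% of all) and 1 lower (3.54% of all). Averaged over their spots, Pcp, TwdlR and Cpr49Aa had -0.15 ± 0.07, -0.04 ± 0.06 and -0.06 ± 0.06. On the direct arrays at 2-16 h Cpr78Cc stood at -0.07 and Cpr67Fa2 at -0.07, both near 0. Without the 2-16 h window 5 member spots passed, all higher in cntrl1: Cpr78Cc (0.82 ± 0.10 and 0.91 ± 0.12), Cpr67Fa2 (0.76 ± 0.09 and 0.79 ± 0.11) and TwdlD (0.74 ± 0.11, adjusted p = 0.0241). Then 80 spots of all genes were called higher and 3 lower.

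Other genes of cuticle formation were described beside the cuticle proteins. Of the chitin and matrix list 21 of 30 genes were measured, and 16 were below 0 at 2-16 h, with a median of -0.05. The largest t were those of Peritrophin-A, a chitin-binding matrix protein (-0.48 ± 0.13), Cht7, a chitinase (-0.31 ± 0.10), and Cda5, a chitin deacetylase (-0.22 ± 0.10). Against cntrl1 10 of the 21 were below 0 and against cntrl2 18, with medians of 0.02 and -0.11. Of the sclerotization and pigment genes 9 of 13 were below 0, led by yellow-h (-0.27 ± 0.11), stw, the gene straw of the laccase family (-0.26 ± 0.12), and Ddc, the dopa decarboxylase (-0.13 ± 0.07). Of the ecdysone and cuticle regulators 12 of 18 were below 0, with a median of -0.02. The largest t in either direction were those of the nuclear receptor Hr3, which was above 0 (0.10 ± 0.05), the steroid hydroxylase sad (-0.09 ± 0.05) and Eip93F (-0.12 ± 0.09). None of the genes on these lists passed the test at 2-16 h, and neither did any in the other windows.

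Markers of other cell types were read on the same arrays. The 5 measured muscle genes (bt, Tm2, Mlc1, Mlc2 and up) were all below 0 at 2-16 h against both controls, at a median of -0.06 against cntrl1 and of -0.40 against cntrl2. They were all above 0 at 2-4 h against cntrl2 (median 0.66) and all below 0 against cntrl1 (-0.07), and none passed the test. The 7 epidermis and trachea markers had medians of 0.03 and -0.15 at 2-16 h against cntrl1 and cntrl2, and of -0.05 and 0.20 at 2-4 h. Of the 6 gut markers 4 were above 0 at 2-16 h against cntrl1 (median 0.07) and 6 against cntrl2 (median 0.15). Neural markers stood at -0.05 and 0.02. Ratios of bulk RNA cannot tell fewer cells of a type from less RNA per cell, and the part of these marker shifts in the cuticle values was not tested.

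In adults several CPR genes were higher in males, and a smaller share of members than of all probe sets passed between the sexes. The tested difference averages the mnn- and the non-mutant level of each sex, so heterozygote females count only towards the spread. Of the 97 probe sets 15 rose in males, or 15.5%, where 31.7% of all probe sets did, and 4 fell, or 4.12%, where 32.8% did (limma, adjusted p under 0.05). Every male array lay above every female array for 9 probe sets (25.6% of all probe sets) and below for 2 (29.8% of all). After the arrays were quantile normalized again, 23 rose and 12 fell (23.7% and 12.4%, against 31.5% and 34.8% of all probe sets), so that the number of calls and the balance of the directions depended on the scaling. With the 4 stocks that have a male and a female array as a block, 16 probe sets passed, 14 of them among the 19. Of the 19, 11 passed whichever single array was left out.

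Cpr72Ec had the largest difference. It read 9.52, 9.30 and 9.29 (log2 RMA intensity) in males labelled mnn-, 9.97 in the control male and 9.17 in the wt male, against 6.58 to 7.78 with a median of 7.49 in the 6 females. The sexes were far apart, at 2.30 ± 0.16 (log2, SE, adjusted p = 2.2e-07). Its neighbour Cpr72Eb was at 0.20 ± 0.09, with adjusted p = 0.058.

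Cpr67Fb read 6.19, 6.46 and 6.43 in males labelled mnn-, 6.26 in the control male and 8.03 in the wt male, against 5.38 to 5.60 in females. All males lay above all females, and the wt male stood far above the other males. The difference was 1.28 ± 0.27 (adjusted p = 0.0013). Cpr67B, at 0.92 ± 0.12 (adjusted p = 4.2e-05), ran from 7.40 to 7.84 in males and from 6.42 to 7.06 in females, without overlap.

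Some members of the gene arrays at 47E and 49A rose. Cpr47Ef was higher in males by 0.70 ± 0.09 (adjusted p = 3.8e-05), from 5.87 to 6.31 in males against 5.32 to 5.55 in females, and Cpr47Ee by 0.57 ± 0.09 (adjusted p = 0.00011). Cpr49Ab was higher by 0.79 ± 0.19 (adjusted p = 0.0028) and Cpr49Ae by 0.60 ± 0.09 (adjusted p = 7.1e-05). Their sexes overlapped, however, as the wt female read 6.88 for Cpr49Ab, above 3 of the 5 males. In both sexes Cpr49Ae lay below the cutoff of the filter on dim probe sets. Cpr49Ah rose by 0.25 ± 0.08 (adjusted p = 0.019), but did not pass with stock as a block (0.21 ± 0.09, adjusted p = 0.0672), nor without the wt female or mnn- female 7. Other members of these arrays, such as Cpr47Ea at 3.88 to 4.22 in males and 3.87 to 4.14 in females, did not pass.

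Cpr51A (0.60 ± 0.10, adjusted p = 0.00026), Cpr62Bb (0.45 ± 0.08, adjusted p = 0.0004), TwdlP (0.48 ± 0.09, adjusted p = 0.00053) and Twdlalpha (0.41 ± 0.08, adjusted p = 0.001) rose as well. The other called increases were Ccp84Ac, Cpr73D at 1 of its 2 probe sets and Cpr12A, from 0.18 to 0.26. Each of these 3 lost its call without 1 to 7 of the single arrays, the mnn- female 7 among them in each case, and with stock as a block Cpr73D (adjusted p = 0.0635) and Cpr12A (adjusted p = 0.0681) did not pass. The 4 that fell were small: TwdlF (-0.26 ± 0.09, adjusted p = 0.023), TwdlV (-0.23 ± 0.07, adjusted p = 0.015), Ccp84Ad (-0.17 ± 0.07, adjusted p = 0.042) and Pcp (-0.17 ± 0.07, adjusted p = 0.04). All males lay below all females for Ccp84Ad and Pcp, but not for TwdlF and TwdlV. The Ccp84Ad probe set has the suffix that its maker gives to probes shared by a sequence family. None of the 4 passed when the control arrays were left out, where they had adjusted p of 0.063 to 0.228, and with stock as a block Ccp84Ad (adjusted p = 0.108) and Pcp (adjusted p = 0.127) did not.

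**Figure D4:**
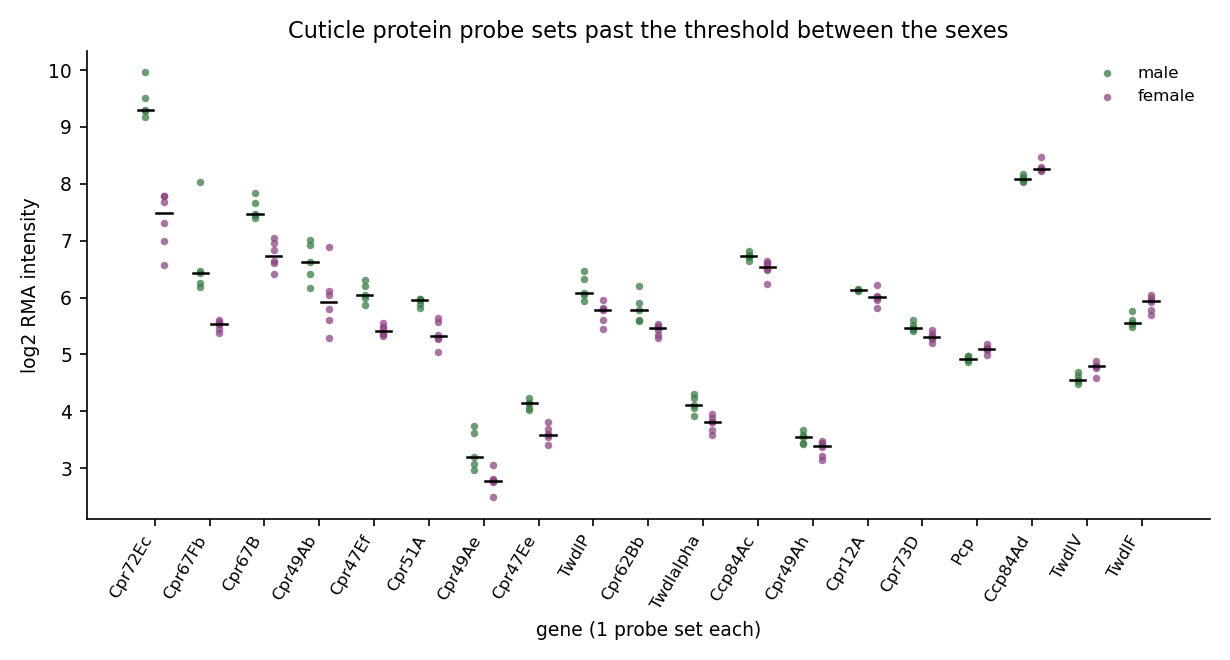
Log2 RMA intensity of the 19 cuticle protein probe sets that passed the test between the sexes, in 5 male arrays (green, left) and 6 female arrays (purple, right), with 1 point per array and black bars at the medians. Cpr72Ec shows the widest gap, with males between 9.17 and 9.97 and females between 6.58 and 7.78. The 4 probe sets lower in males stand at the right. Heterozygote females are among the 6, but their level had no part in the tested difference.

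Related lists were compared with the same background, 31.7% of all probe sets higher and 32.8% lower in males. Of the 13 sclerotization and pigment genes 9 rose in males and 1 fell, led by Pu, an enzyme of pteridine synthesis (2.01 ± 0.22), Ddc (1.40 ± 0.11) and t, the gene tan (1.32 ± 0.14). Of the 22 chitin and matrix genes 11 rose and 2 fell, and of the 20 ecdysone and cuticle regulators 2 rose and 6 fell, led by ftz-f1 (-2.29 ± 0.09), an ecdysone-response nuclear receptor. Muscle markers rose at 6 of 6 genes (median difference 1.21), and epidermis and trachea markers at 4 of 7 (0.20). Yolk and eggshell genes fell at 12 of 12 (-3.30), and the ovary, which forms the eggshell, is present in females only. The part of these tissue differences in the cuticle values was not tested.

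No cuticle protein probe set passed the test between adults labelled mnn- and non-mutant adults. With both sexes together 0 of 97 passed, and over all probe sets 0% rose and 0.0358% fell, with 4 lower and 0 higher at an unadjusted p under 0.05 (4.07% and 3.24% of all). The 4 were among the genes that rose in males.

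Cpr49Ae had the smallest p, but all its readings lay below the cutoff of the filter on dim probe sets. It read 3.19, 3.08 and 2.98 in males labelled mnn- against 3.61 (control) and 3.74 (wt), and 2.49 and 2.76 in females labelled mnn- against 2.81 and 3.06. In both sexes the arrays labelled mnn- lay below the non-mutant arrays, by 0.45 ± 0.09 in the fit (-0.45, adjusted p = 0.19). Cpr49Ab read 6.63, 6.42 and 6.17 in males labelled mnn- against 6.92 and 7.004, and 5.60 and 5.30 in females labelled mnn- against 5.81 and 6.88, a difference of -0.73 ± 0.19 (adjusted p = 0.43). Here too the groups did not overlap within either sex, and the heterozygote females read 6.04 and 6.12, between the control and the wt female.

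Cpr62Bb had -0.29 ± 0.08 (adjusted p = 0.48), with 5.78, 5.59 and 5.60 in males labelled mnn- against 5.90 and 6.21, and 5.30 and 5.35 in females labelled mnn- against 5.49 and 5.49. Cpr72Ec had -0.48 ± 0.16 (adjusted p = 0.55): females labelled mnn- read 6.58 and 6.9996 against 7.78 and 7.30, while males labelled mnn- overlapped the non-mutant males. The highest values with both sexes were small, at Cpr73D (0.11 ± 0.07), TwdlT (0.09 ± 0.06 and 0.08 ± 0.07 at its 2 probe sets) and TwdlE (0.08 ± 0.08).

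Without the control arrays Cpr49Ae (-0.55, adjusted p = 0.0213), Cpr49Ab (-1.01, adjusted p = 0.00171) and Cpr67Fb (-0.90, adjusted p = 0.000505) passed in the fit of both sexes, and without the wt arrays Cpr72Ec did (-0.80, adjusted p = 0.0474). Leaving out the control female alone was enough for Cpr49Ab (-0.99, adjusted p = 0.00622), and the control male alone for Cpr67Fb (-0.90, adjusted p = 0.000674). These fits leave 1 non-mutant array in a sex, whose spread is assumed to be that of the other groups. In males all arrays labelled mnn- lay below both non-mutant arrays for 7 probe sets and above for 8 (10.5% and 10.2% of all probe sets), and in females for 13 and 9 (17.1% and 18.8% of all). These were 7.22% and 8.25% of the members in males and 13.4% and 9.28% in females, each below the share of all probe sets.

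Within males 0 of 97 passed, and 0% of all probe sets rose and 0.0286% fell. Cpr49Ae (-0.60 ± 0.12), Cpr62Bb (-0.40 ± 0.11), Cpr49Ab (-0.56 ± 0.25) and Cpr67Fb (-0.79 ± 0.36) had the smallest p among lower values, and TwdlP (0.30 ± 0.12), Cpr64Ad (0.15 ± 0.09), Cpr62Bc (0.17 ± 0.11) and Edg91 (0.16 ± 0.12) among higher ones. The value of Cpr67Fb rested on the wt male: without that array it was 0.095, and without the control male -1.68 (adjusted p = 8e-05). Cpr49Ae passed in males when the control male and female were both left out (-0.66, adjusted p = 0.0483). In females 0 passed, and 0% of all rose and 0.00716% fell. Cpr49Ab (-0.89 ± 0.27), Cpr72Ec (-0.75 ± 0.24), TwdlM (-0.60 ± 0.24) and Cpr49Ae (-0.31 ± 0.13) were lowest by p. TwdlJ (0.26 ± 0.13), TwdlT (0.15 ± 0.09), Cpr50Cb (0.16 ± 0.11) and Lcp65Ad (0.16 ± 0.12) were highest. Averaged over their probe sets, TwdlJ had 0.12 ± 0.12 and TwdlT 0.09 ± 0.09. Without the control female, which leaves the wt female as the only non-mutant female, Cpr49Ab passed in females (-1.43, adjusted p = 0.00983), again with the spread taken from the other groups.

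The genotype difference was compared between the sexes by an interaction contrast, males minus females. For 0 of 97 probe sets did it pass, and 0% of all did. TwdlP came nearest: males labelled mnn- read 6.32, 6.09 and 6.47 against 5.94 and 6.05, and females labelled mnn- 5.44 and 5.61 against 5.79 and 5.82, so that mnn- was above in males and below in females. The contrast was 0.58 ± 0.18 (adjusted p = 0.99). TwdlM (0.61 ± 0.33), Cpr72Ec (0.55 ± 0.33) and Edg91 (0.29 ± 0.17) were the next above 0. Below 0 were TwdlJ (-0.44 ± 0.17), Cpr50Cb (-0.34 ± 0.14), Cpr30B (-0.23 ± 0.13) and Cpr49Ae (-0.29 ± 0.17). Averaged over its probe sets, TwdlJ had -0.19 ± 0.16. Without the control male Cpr67Fb passed this contrast (-1.56, adjusted p = 0.00202), on the level of the 1 wt male.

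**Figure D5:**
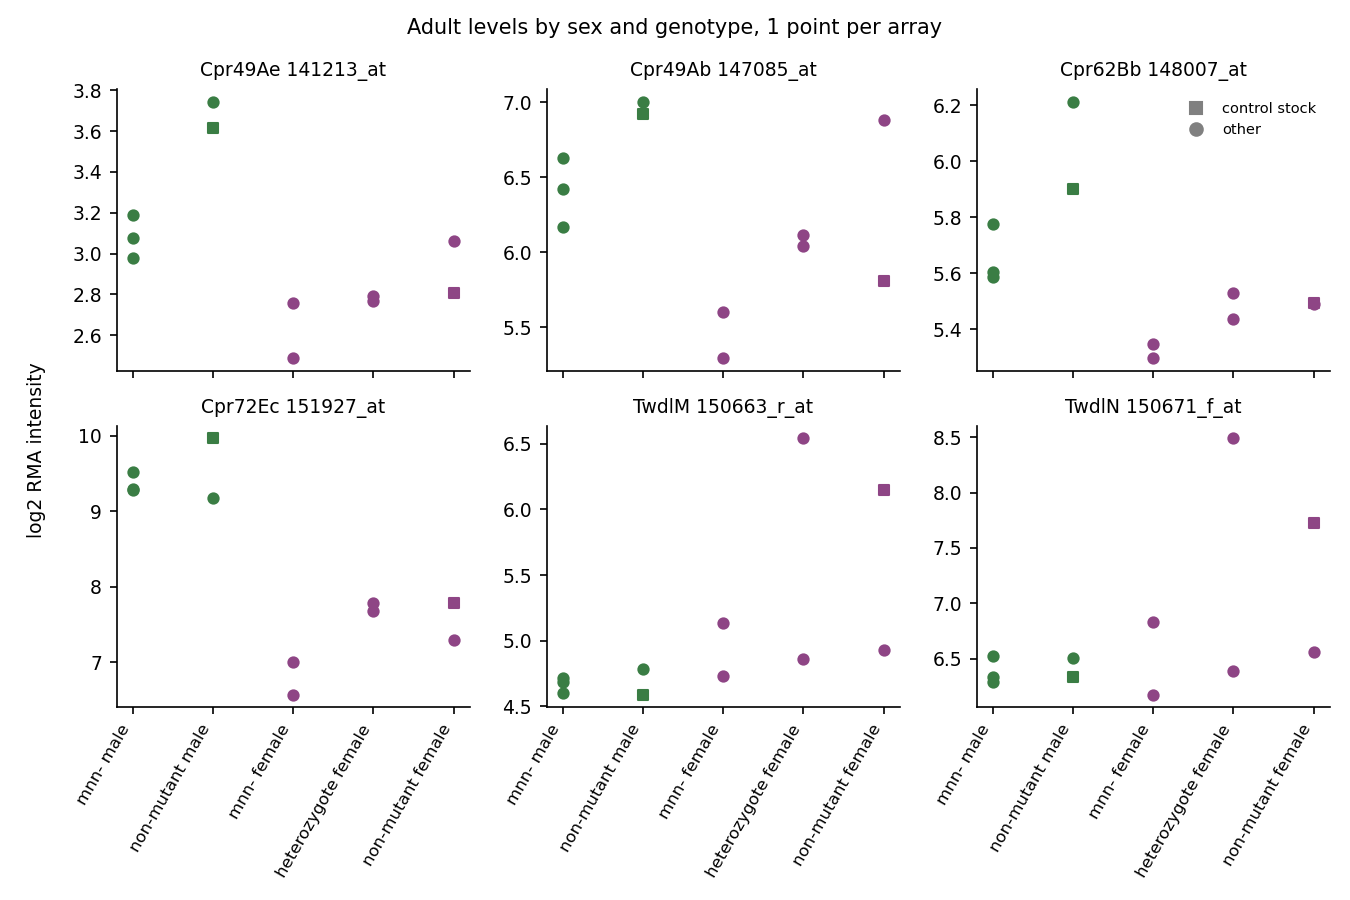
Log2 RMA intensity of 6 cuticle protein probe sets on each adult array, by label and sex (green males, purple females, squares for the control X113_X84 stock, 1 point per array). Cpr49Ae and Cpr49Ab read lower on all arrays labelled mnn- than on the non-mutant arrays of the same sex. Cpr49Ae lies below the cutoff of the filter on dim probe sets. TwdlM and TwdlN are highest in 1 heterozygote female and the control female, TwdlM at 6.54 and 6.14.

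Heterozygote females were set against non-mutant females, and 0 of 97 probe sets passed, as did 0% of all. TwdlW (0.27 ± 0.11), TwdlN (0.45 ± 0.21), Cpr47Eb (0.19 ± 0.10) and Cpr49Ah (0.21 ± 0.12) had the smallest p above 0, and TwdlV (-0.15 ± 0.11), Cpr49Ae (-0.16 ± 0.13), Cpr50Ca (-0.15 ± 0.12) and Cpr49Ab (-0.26 ± 0.27) below 0. The members' median was 0.07, against 0.01 for all probe sets.

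A few Tweedle and CPR genes separated single female arrays instead, chosen here after their values were seen. TwdlM, at its probe set with an r suffix, read 6.54 in the X113_Y79 heterozygote and 6.14 in the X113_X84 control, but 4.86 in the X84_X46 heterozygote, 4.93 in the wt female and 4.73 and 5.14 in females labelled mnn-. At the other TwdlM probe set the same 2 arrays were highest, at 9.55 and 9.22, but the wt female read 9.17, close to them, and the remaining females 8.43 to 8.77. TwdlN, at its probe set with an f suffix, gave 8.49 and 7.73 on the first 2 of these arrays and 6.18 to 6.83 on the other females. Cpr65Ea gave 6.27 and 5.92 there and 5.08 to 5.60 elsewhere, Cpr47Eg 7.30 and 6.92 and 6.01 to 6.28, and TwdlL 4.12 and 3.52 and 3.14 to 3.22. These TwdlL readings all lay below the cutoff of the filter on dim probe sets. The males, the X113_X84 control included, read 4.59 to 4.78 for TwdlM. Both female arrays carry X113 in their label, and so does that male.

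TwdlL, TwdlM and TwdlN belong to a run of 11 adjacent Twdl genes on chromosome arm 3R, and the probe sets of TwdlN with an f suffix are shared by a sequence family. Over all members, 8 of 97 probe sets (8.25%) lay more than 0.5 above the female median on the X113_Y79 array, where 1.77% of all probe sets did, and 4 (4.12%) on the control female, against 0.344% of all. On the remaining female arrays 0 or 1 did. The 8 probe sets came from Ccp84Ag, Cpr47Eg, Cpr65Ea, TwdlL, TwdlM and TwdlN, so that some genes counted more than once. The median of the 6 muscle markers was also higher on the X113_Y79 and control arrays. It was 6.83 and 6.63 there, and 6.09 to 6.20 on the other females. The part of this in the values was not tested.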

How the data were processed

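Embryo values are log ratios that the authors deposited, for which the submitters' processing notes name limma 2.12.0. No header states base or sign, so they were read as log2 ratios. Swapped arrays were taken as already turned. This rests mainly on spot 12320, which lay between 1.65 and 3.38 on all 10 arrays with cntrl2, in both dye assignments (after the turn of sign). Across all spots, cntrl1 over cntrl2 at 2-16 h through mnn++ and on the direct arrays had r = 0.30. With swapped arrays read as not yet turned it was 0.09. The deposited adult log2 intensities were summarised with RMA in affy 2.12.0, per those notes. Depth does not apply to arrays, whose number limits precision. Symbols were updated through gene IDs to RefSeq (Release 6). The files name no assembly, so no coordinates are given, and no sequences were used.

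Tests used limma 3.58.1 (lmFit, eBayes) in R 4.3.3, checked on simulated data, with Benjamini-Hochberg over all 30377 spots or 13966 probe sets and a threshold of 0.05. Dye assignments were averaged, and 1 level per window was fitted to the 8 mnn++ comparisons. Adults had 5 levels of sex and genotype, with wt and control pooled as non-mutant. Heterozygote females had no weight in the difference between the sexes. Members, lists and tests were chosen with earlier results of these data known.

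Named genes are all called members, or 8 per direction where over 10 were called. At 2-16 h they are the 10 lowest and 5 highest spots with 1 sign on all 4 arrays, in other embryo comparisons 3 per direction, and in adult genotype comparisons the 4 smallest p per direction. Members of small families may be named, and 3 genes per related list. Alternatives were each array as its own value, common spread, gene averages, each control alone, robust or trended eBayes, repeated quantile normalization, a filter on dim probe sets, and leaving out arrays or windows. Reading the swapped arrays as not yet turned, and taking the 4 stocks with a male and a female array as a block between the sexes, were added after seeing the data.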

Additional observations from a re-analysis of the deposited data

Results flagged for a closer look

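Among 77 sets of 4 to 6 arrays looked at for the named members, 4 held an array whose gap to its nearest neighbour was large against the range of the set, and chance gives about 1 in 20. At 2-16 h TwdlG spot 2906 read -0.002 on the cntrl1 array with mnn++ in Cy5, against -0.71 to -0.63 on the other 3. In adult females Ccp84Ad read 8.47 on the X113_Y79 heterozygote, against 8.23 to 8.30 on the others. Among males Cpr67Fb read 8.03 in the wt male, against 6.19 to 6.46, and TwdlN, at its probe set with an i suffix, read 3.79 in male 9 labelled mnn-, against 4.06 to 4.17.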

How the results depend on the processing

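Of the counts of members called or below 0, 180 alternative values lay within 1.5 times the first and 26 did not, and for single named spots and probe sets 50 of 1175 alternative values turned sign. The cause was not tested. Swapped arrays read as not yet turned, a reading under which dye effects add up and which was chosen after seeing the data, gave 5, 7, 1 and 70 calls at 2-16 h, 2-4 h, 4-6 h and over 4 windows, and 138, 135 and 121 spots below 0 at 2-4 h, at 4-6 h and between the controls (76, 86 and 70 otherwise). It also turned TwdlW 0.145, TwdlD 0.193 and 0.19, Cpr64Ab 0.0915, TwdlR 0.0203 and Lcp9 -0.031 (2-16 h), Cpr65Ec 0.275 and 0.191, Cpr12A 0.174, TwdlD -0.0665 and Cpr67Fa2 -0.0318 (2-4 h), Cpr65Az 0.0095, Cpr65Ec 0.234 and Cpr78Cc -0.149 and -0.269 (4-6 h), Lcp65Ac 0.114, Lcp65Ae 0.229, TwdlF -0.197, Cpr97Ea -0.218 and Cpr47Eb -0.359 (6-8 h), and TwdlD 0.138 and Cpr49Af -0.0177 (contrast of windows). Over 4 windows it turned Cpr65Ec 0.132 and 0.188, TwdlW 0.147, Cpr47Eb -0.164 and Cpr78Cc -0.153, and between the controls TwdlR 0.0519, Cpr49Aa 0.0201, Cpr78Cc -0.231 and -0.209 and Cpr67Fa2 -0.1004. Against cntrl1 alone 123 spots lay below 0 at 2-4 h, and Cpr51A -0.116, TwdlD -0.0625 and Cpr67Fa2 -0.0275 (2-4 h), Cpr65Ec 0.028, Cpr78Cc -0.232 and -0.234 and Cpr67Fa2 -0.124 (4-6 h), TwdlF -0.102 and Cpr47Eb -0.123 (6-8 h) and Cpr67Fa2 -0.162, Cpr47Eb -0.046 and Cpr78Cc -0.144 (4 windows) turned sign. Against cntrl2 alone calls were 3, 4, 2 and 9 (2-16 h, 2-4 h, 4-6 h and the contrast), 62 spots were below 0 at 6-8 h (112 otherwise), and Cpr65Ec stood at 0.0325 at 2-4 h. Arrays entered singly gave 1 call at 2-16 h. Leaving out single windows gave 0 to 5 calls between the controls (62 to 88 below 0) and 0 over 4 windows (86 to 131 below 0), and moved TwdlW over 4 windows between -0.201 and 0.0554, above 0 without 2-16 h. In adults a repeated quantile normalization gave 35 calls between the sexes (19 otherwise). Leaving out single arrays gave 14 to 21 there, 0 to 1 for mnn- in both sexes, in males, in females and for their difference, and 0 for heterozygotes. Without the control arrays these were 3, 2, 1 and 1, and without the wt arrays 1 in both sexes. Leaving out single arrays moved Cpr67Fb in mnn- males between -1.68 (without the control male) and 0.095 (without the wt male or both wt arrays), and Cpr49Ab in heterozygote females between -0.80 (without the control) and 0.274 (without wt). The replicate numbers are array numbers that no groups share, so pairs came from the stock names alone: with stock as a replicate block, added after seeing the data, 16 calls were made between the sexes. The controls were compared within windows throughout. The number of arrays limits precision, most of all in fits with 2 arrays or with 1 wt and 1 control array per sex.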
